A study of Homo sapiens with 4 samples.

Results

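The miR-29 family was followed through 4 small-RNA libraries by the rows named hsa-miR-29a-3p, hsa-miR-29b-3p, hsa-miR-29b-1-5p, hsa-miR-29c-3p and hsa-miR-29c-5p (the species prefix is left out below). These are 5 of the 2366 human miRNA rows in each library, and all 5 passed the filter on low counts, which left 464 miRNAs for testing. The rows of the remaining arms, miR-29a-5p and miR-29b-2-5p, also passed it and are given beside the members because they come from the same hairpins. The libraries came from K562-dCas9-KRAB cells, a line derived from the human chronic myeloid leukaemia line K562 that carries a catalytically dead Cas9 fused to a transcriptional repressor (CRISPR interference). ERH was targeted by 2 guide RNAs, each in a doxycycline-inducible polyclonal line of its own, and each line gave 1 library after 5 days with 0.05 µg/ml doxycycline (ERH knockdown) and 1 after 5 days without it (control). Both groups therefore carried an ERH guide RNA and differed in doxycycline, whose own effect cannot be told apart from that of knockdown, and the level of ERH itself cannot be read from small RNAs.

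miR-29 miRNAs repress genes of the extracellular matrix such as collagens, the DNA methyltransferases DNMT3A and DNMT3B, and the survival factor MCL1. Their transcripts are cut by Microprocessor, the nuclear complex of Drosha and DGCR8 that frees a hairpin from its primary transcript, and then by Dicer, which leaves a 5p and a 3p arm. In this family the 3p arms are the main products. ERH is a small DGCR8-binding protein, and the title of the series ties it to hairpins that are poor substrates and lie beside another hairpin. The miR-29 hairpins lie in pairs, so the comparison asks whether knockdown changes the members alike, and in particular whether miR-29b parts from miR-29a and miR-29c.

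The 3p arms are shown because they share a seed (bases 2 to 8, in capitals, which sets the targets) and differ only outside it. Sequences are from RefSeq (GRCh38.p14), which held all 7 names.
miR-29a-3p: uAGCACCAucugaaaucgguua
miR-29b-3p: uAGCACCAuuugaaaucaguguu
miR-29c-3p: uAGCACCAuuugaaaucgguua
The 22 bases of miR-29a-3p and miR-29c-3p differ at 1 position, C10U, counted from the 5′ end with the base of miR-29a-3p first. miR-29c-3p and miR-29b-3p differ at 3 of those positions (G18A, U21G and A22U), and miR-29b-3p is 1 base longer, at 23. How the authors assigned a read that fits more than 1 of these is not given in the sources used here, so a read with an error at base 10 could pass between miR-29a-3p and miR-29c-3p. The last 6 bases of miR-29b-3p, AGUGUU, are known as a signal for import into the nucleus. No other of the 413 tested miRNAs with a RefSeq sequence ended in AGUGUU, and 0.549% of all RefSeq mature miRNAs held it anywhere. No RefSeq miRNA besides these 3 has the seed AGCACCA.

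The 4 hairpins are shown with their annotated arms in capitals, since miR-29b-3p is cut from a pair of them and only its 5p arms tell which.
MIR29B1: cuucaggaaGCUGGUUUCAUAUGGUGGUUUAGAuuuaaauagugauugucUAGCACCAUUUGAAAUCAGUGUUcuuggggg
MIR29A: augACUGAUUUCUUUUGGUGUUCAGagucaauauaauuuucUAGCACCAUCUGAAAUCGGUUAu
MIR29B2: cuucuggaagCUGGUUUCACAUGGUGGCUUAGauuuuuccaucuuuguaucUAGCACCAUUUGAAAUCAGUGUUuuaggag
MIR29C: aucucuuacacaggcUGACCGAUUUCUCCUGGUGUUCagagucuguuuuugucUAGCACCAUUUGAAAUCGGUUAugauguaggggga
MIR29B1 lies at chr7:130877459-130877539 and MIR29A at chr7:130876747-130876810, both on the minus strand of GRCh38, with 648 bases between them. In GENCODE 29 MIR29B1 lies inside an exon of LINC-PINT, a long noncoding RNA, while MIR29A only overlaps the end of one and otherwise lies in an intron of AC016831.6. MIR29B2 lies at chr1:207802443-207802523 and MIR29C at chr1:207801852-207801939, on the minus strand, with 503 bases between them, both within an exon of their host transcript MIR29B2CHG. In each pair the miR-29b hairpin is transcribed first. RNAfold gave the annotated hairpins -34.1 kcal/mol (MIR29B1), -24.6 (MIR29A), -31.1 (MIR29B2) and -34.8 (MIR29C). Per base these are -0.421, -0.384, -0.384 and -0.395, against a median of -0.485 over the 309 hairpins of tested miRNAs. Between 14.6% and 24.3% of those hairpins were less stable per base than a given miR-29 hairpin. Annotated hairpins differ in how much of the lower stem they hold, and that of MIR29A is the shortest at 64 bases. UGU is a loop motif known from efficiently cut hairpins. These bases occur somewhere between the arms in MIR29B1, MIR29B2 and MIR29C, and in 42.7% of 239 tested hairpins with both arms annotated (read on the transcribed strand). Their position within the loop was not considered, so they need not be the motif.

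**Figure D1:**
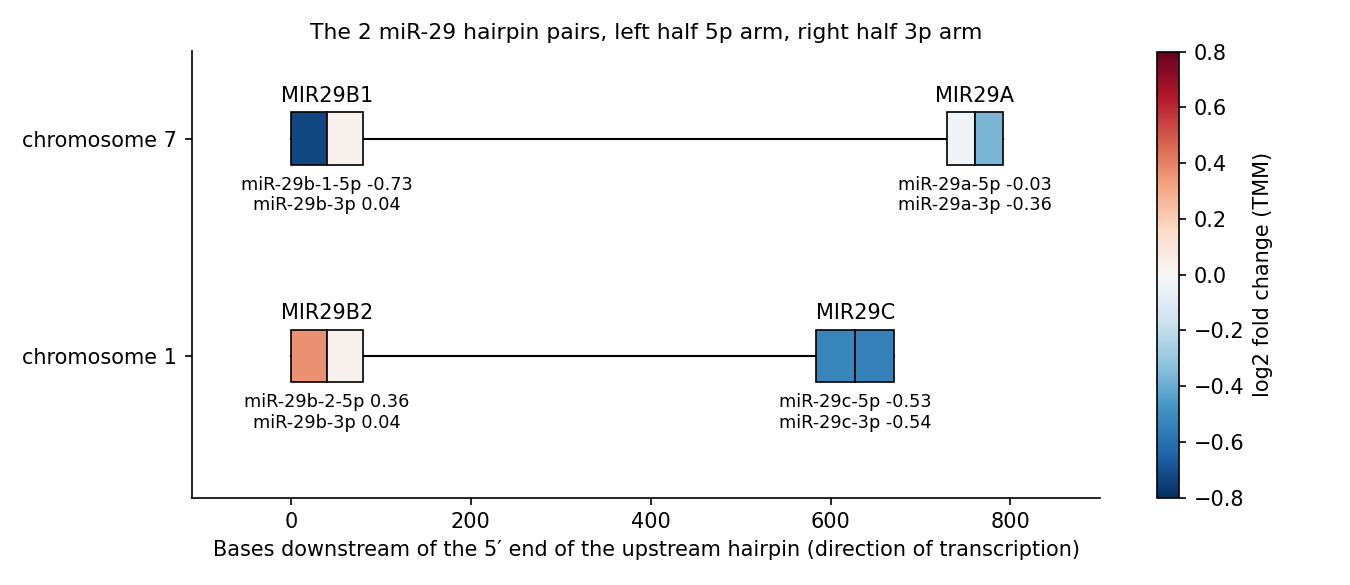
Map of the 2 hairpin pairs to scale, with bases along the direction of transcription on the x axis and each hairpin drawn as a box whose left and right sides stand for its 5p and 3p arm. Colour gives the log2 fold change of knockdown over control with TMM scaling. The miR-29b-3p boxes, which show the same reads at both loci, are near 0 at 0.04, whereas both miR-29c arms are at about -0.5 and the 5p arm of MIR29B1 is at -0.73.

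The libraries held 1430434 to 2476700 miRNA reads, of which the 5 members took 0.671% to 0.830%. Of all 464 miRNAs, 50.9% were called (quasi-likelihood test of edgeR, called where the Benjamini-Hochberg adjusted p over all tested was below 0.05), 25.2% as lower and 25.6% as higher after knockdown, so a single call is common here. The erythroid marker miRNAs summed to 40129 to 41020 CPM (reads per library, brought to the same total) in controls and 51748 to 53692 after knockdown, and the myeloid ones to 109929 to 110093 and 101827 to 102456. Markers of other cell types, of which 7 of 8 had rows and none was at 0 throughout, summed to 1043 to 1091 in controls and 1579 to 1622 after knockdown. These marker sums use library size alone, where the median log2 fold change over all tested miRNAs was 0.50, against 0.06 with TMM. They are therefore not on the TMM scale used below, and the direction of a sum can differ there. A sum also does not show its single markers. The part of the markers in the miR-29 results was not tested. "Rose" and "fell" below are relative to the bulk of miRNAs (TMM scaling), because the level of the whole library depends on the scaling. Over all tested miRNAs the log2 fold change had a median of 0.06 with TMM, 0.50 with library size alone and 0.75 with the added spike-in RNAs.

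Of the 3p arms, miR-29a-3p and miR-29c-3p fell and miR-29b-3p was not called. miR-29a-3p and miR-29c-3p had negative log2 ratios with both guide RNAs, each of which has 1 library per condition and so no test of its own. miR-29b-3p was the most abundant member, with 8817 and 8669 reads in the knockdown libraries against 4074 and 6478 in the controls (guide RNA 1 first here and below). In CPM with TMM factors these are 3348 and 3163 after knockdown and 3229 and 3124 in controls. The 4 libraries lie close together and the groups overlap. Its log2 fold change was 0.04 ± 0.05 (SE, 2 libraries per group; adjusted p = 0.609 in edgeR), with 0.05 in guide RNA 1 and 0.02 in guide RNA 2.

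miR-29a-3p, from the chromosome 7 pair, had 5421 and 5781 reads in the knockdown libraries against 3541 and 5313 in the controls. In CPM it stood at 2058 and 2109 after knockdown and 2807 and 2562 in controls. Both knockdown libraries lie below both controls. With 2 libraries per group, unchanged values part fully in this way, in either direction, with a probability of 0.333. The share of all tested miRNAs whose groups do not overlap was not counted, so the lack of overlap named here and below only describes the libraries. It fell by 0.36 ± 0.06 on the log2 scale (adjusted p = 1.3e-04 in edgeR), by 0.45 in guide RNA 1 and by 0.28 in guide RNA 2.

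miR-29c-3p, from the chromosome 1 pair, had 4109 and 4090 reads in the knockdown libraries against 2750 and 4664 in the controls. That is 1560 and 1492 CPM after knockdown and 2180 and 2249 in controls, again with no overlap. It fell by 0.54 ± 0.06 (adjusted p = 1.5e-06 in edgeR), by 0.48 in guide RNA 1 and by 0.59 in guide RNA 2. miR-29c-3p held place 47 by read count in both controls and places 58 and 60 after knockdown, while miR-29b-3p moved from places 38 and 40 to 36 and 37. These directions rest on the scaling. With library size alone miR-29a-3p was at 0.07 and miR-29c-3p at -0.10, neither called, and miR-29b-3p was called at 0.47. With spike-ins the values were 0.34, 0.15 and 0.72, none called.

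**Figure D2:**
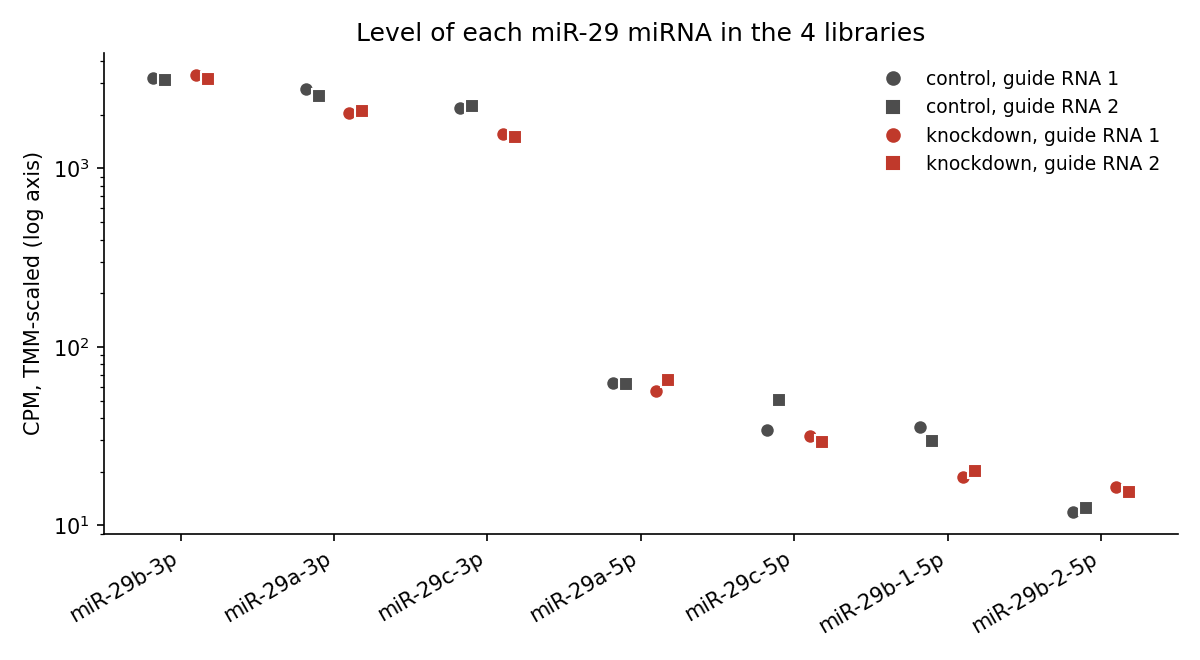
TMM-scaled CPM (log axis) of the 7 miR-29 miRNAs, 1 point per library, grey for control and red for knockdown, circles for guide RNA 1 and squares for guide RNA 2. The red points lie below the grey ones for miR-29a-3p, miR-29c-3p, miR-29b-1-5p and, by little in guide RNA 1, miR-29c-5p. They lie above the grey ones for miR-29b-2-5p and beside them for miR-29b-3p and miR-29a-5p.

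Whether miR-29b parted from its relatives was then read from ratios of counts within a library, which need no scaling. Each library had more miR-29b-3p than miR-29a-3p, with 1.63 and 1.5 reads per read after knockdown and 1.15 and 1.22 in controls. The mean was 1.56 ± 0.09 with knockdown and 1.19 ± 0.05 without it (SD, n = 2), 1.32-fold higher after knockdown, by 1.41-fold in guide RNA 1 and 1.23-fold in guide RNA 2. miR-29b-3p per miR-29c-3p was 2.15 and 2.12 after knockdown and 1.48 and 1.39 in controls, or 2.13 ± 0.02 and 1.44 ± 0.07 (SD, n = 2). This ratio was 1.49-fold higher after knockdown, by 1.45-fold and 1.53-fold within the guide RNAs. Both differences exceed the spread between libraries of 1 group, and for both the counting intervals of knockdown and control do not meet. The two-sided exact permutation p was 0.333 for each ratio, the smallest that 2 libraries per group allow.

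The ratio of every tested miRNA to miR-29b-3p was also fitted at once (limma on log2 ratios, with a prior variance that follows read depth). This prior is pooled over all ratios, so the p-values it gives below rest almost wholly on the spread of other miRNAs. miR-29a-3p per miR-29b-3p changed by -0.40 ± 0.10 (SE, log2; adjusted p = 4.3e-04) and miR-29c-3p per miR-29b-3p by -0.57 ± 0.10 (adjusted p = 2.9e-07). With 1 prior variance for all ratios, the adjusted p of limma was 0.086 for miR-29a-3p, which ends that call, and 0.040 for miR-29c-3p. In this fit 48.4% of the ratios were called, and 24.8% of 463 miRNAs were called as lower and 23.5% as higher against miR-29b-3p. A call against miR-29b-3p is therefore shared with many unrelated miRNAs. How many ratios changed by as much as these was not counted. All ratios share the miR-29b-3p count, and an error in it would move them together.

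The ratio of miR-29c-3p to miR-29a-3p differed between the guide RNAs. miR-29c-3p per miR-29a-3p was 0.758 and 0.708 after knockdown against 0.777 and 0.878 in controls. The means were 0.733 ± 0.036 and 0.827 ± 0.072 (SD, n = 2), a log2 change of -0.17 that ran from -0.04 in guide RNA 1 to -0.31 in guide RNA 2, where it was as large as that of miR-29b-3p per miR-29a-3p (0.30). Without control replicate 2 the change was -0.085, and without control replicate 1 it was -0.26. In guide RNA 1 the counting intervals of both libraries overlap (0.728 to 0.789 after knockdown and 0.739 to 0.817 in the control, 95% exact binomial). These intervals do not set the libraries apart. In guide RNA 2 they are apart (0.680 to 0.737 after knockdown and 0.844 to 0.913 in the control).

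Seen as the make-up of all reads with the seed AGCACCA, miR-29b-3p held a larger part after knockdown and both others a smaller one. Its share was 48.1% and 46.8% after knockdown and 39.3% and 39.4% in controls (95% exact binomial intervals 47.3% to 48.8%, 46.0% to 47.5%, 38.4% to 40.3% and 38.6% to 40.1%, covering counting error only). The share was 8.07 percentage points higher after knockdown, by 8.75 in guide RNA 1 and 7.39 in guide RNA 2. miR-29a-3p held 29.5% and 31.2% after knockdown and 34.2% and 32.3% in controls, with its larger shift in guide RNA 1. miR-29c-3p held 22.4% and 22.1% after knockdown and 26.5% and 28.3% in controls, with its larger shift in guide RNA 2. The exact permutation p was 0.333 for each share, the smallest possible. The summed level of the 3 arms changed direction with the scaling. It was 6966 and 6764.5 CPM after knockdown and 8215 and 7935 in controls with TMM, but 0.824% and 0.775% of miRNA reads after knockdown and 0.725% and 0.664% in controls.

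**Figure D3:**
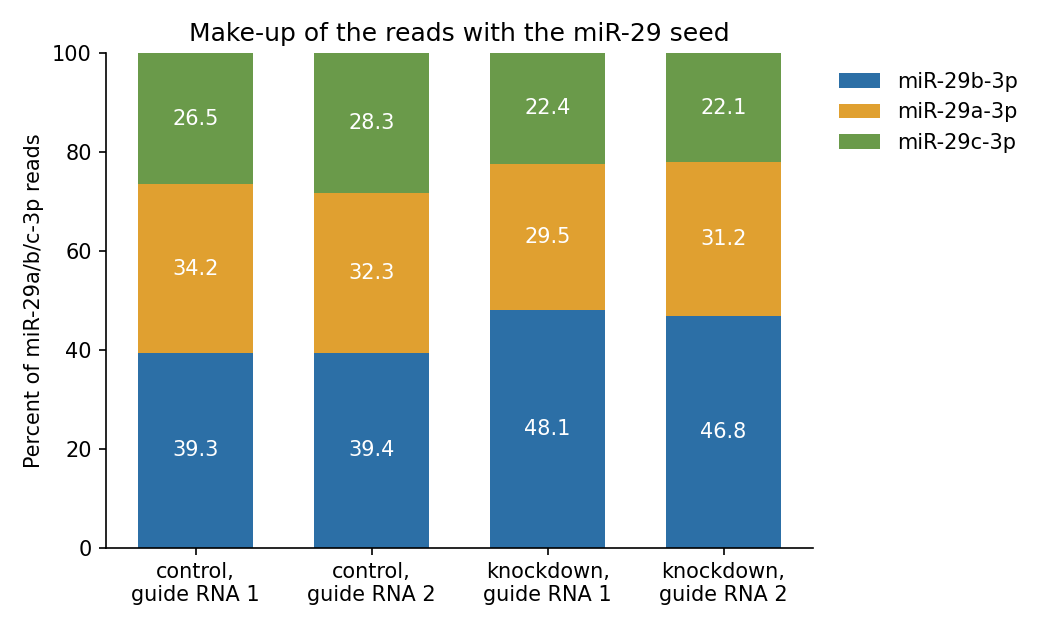
Percent of the reads with the miR-29 seed that were miR-29b-3p, miR-29a-3p and miR-29c-3p, 1 bar per library. The miR-29b-3p part is 39.3% and 39.4% in the controls and 48.1% and 46.8% after knockdown.

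The 5p arms are the minor products, and among all miR-29 reads the 3p arms made up 98.2% ± 0.1 after knockdown and 98.2% ± 0.1 in controls (SD, n = 2). miR-29b-1-5p, which only MIR29B1 makes, had 49 and 55 reads in the knockdown libraries against 45 and 62 in the controls. In CPM it stood at 18.6 and 20.1 after knockdown and 35.7 and 29.9 in controls, with no overlap. It fell by 0.73 ± 0.20 (adjusted p = 0.0077 in edgeR), by 0.91 in guide RNA 1 and 0.55 in guide RNA 2. DESeq2 gave -0.80 at an adjusted p of 0.0504, which is no call, and the edgeR call was also lost without either knockdown library or without control replicate 1 (adjusted p = 0.051 to 0.068).

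The ratio of miR-29b-1-5p to miR-29b-3p was lower after knockdown. Since miR-29b-3p pools the reads of MIR29B1 and MIR29B2, this ratio does not show how the arms of MIR29B1 alone changed. There were 0.0056 and 0.0063 reads of it per read of miR-29b-3p after knockdown and 0.0110 and 0.0096 in controls, or 0.0060 ± 0.0006 and 0.0103 ± 0.0010 (SD, n = 2), 1.73-fold lower after knockdown. The counting intervals are apart in guide RNA 1 and overlap in guide RNA 2. In the fit of ratios it changed by -0.79 ± 0.22 (adjusted p = 0.0014 in limma, 0.031 with 1 prior variance); without knockdown replicate 1 the adjusted p was 0.055. Per read of its neighbour miR-29a-3p the values were 0.0090 and 0.0095 after knockdown and 0.0127 and 0.0117 in controls, with overlapping counting intervals. That ratio was chosen after the counts were seen.

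miR-29b-2-5p, which only MIR29B2 makes and which is no member, went the other way. It had 43 and 42 reads in the knockdown libraries against 15 and 26 in the controls, or 16.3 and 15.3 CPM against 11.9 and 12.5, with no overlap. The log2 fold change of 0.36 ± 0.26 was not called (adjusted p = 0.27 in edgeR), while it was with library size alone (0.81, adjusted p = 0.0092 in edgeR) and with spike-ins (1.03, adjusted p = 0.029 in edgeR). Of the reads of both miR-29b 5p arms, miR-29b-2-5p made up 46.7% and 43.3% after knockdown and 25.0% and 29.5% in controls. Their 95% exact binomial intervals are wide at this depth and meet, at 36.3% to 57.4% and 33.3% to 53.7% after knockdown and 14.7% to 37.9% and 20.3% to 40.2% in controls. The group means were 45.0% ± 2.4 and 27.3% ± 3.2 (SD, n = 2), with an exact permutation p of 0.333. Per read of its downstream neighbour miR-29c-3p, miR-29b-2-5p was at 0.0105 and 0.0103 after knockdown and 0.0055 and 0.0056 in controls. That is 1.88-fold higher, with overlapping counting intervals. Such overlap does not by itself show that counting error covers the difference. These ratios were chosen after the counts were seen.

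miR-29c-5p had 84 and 80 reads in the knockdown libraries against 43 and 105 in the controls, or 31.9 and 29.2 CPM against 34.1 and 50.6. Both knockdown libraries lie below both controls, but guide RNA 1 by little. It fell by 0.53 ± 0.19 (adjusted p = 0.032 in edgeR), by 0.09 in guide RNA 1 and 0.78 in guide RNA 2. The call rests on the control of guide RNA 2, without which the value was -0.15 (adjusted p = 0.68 in edgeR), and it was lost in DESeq2 (adjusted p = 0.15) and without either knockdown library. Its ratio to miR-29b-3p changed by -0.48 ± 0.19 (adjusted p = 0.029 in limma, 0.061 with guide RNA as a block and 0.18 with 1 prior variance). Without control replicate 2 that ratio changed by -0.18. The arms of MIR29C did not part detectably, with 0.0204 and 0.0196 reads of miR-29c-5p per miR-29c-3p after knockdown and 0.0156 and 0.0225 in controls, 1 control on either side. The log2 change was 0.09 and ran from 0.39 in guide RNA 1 to -0.20 in guide RNA 2.

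miR-29a-5p had 149 and 179 reads in the knockdown libraries against 79 and 128 in the controls, or 56.6 and 65.3 CPM against 62.6 and 61.7. The groups overlap, and its log2 fold change was -0.03 ± 0.14 (adjusted p = 0.885 in edgeR). Per read of miR-29a-3p it was at 0.0275 and 0.0310 after knockdown and 0.0223 and 0.0241 in controls, 1.26-fold higher, with overlapping counting intervals within each guide RNA.

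**Figure D4:**
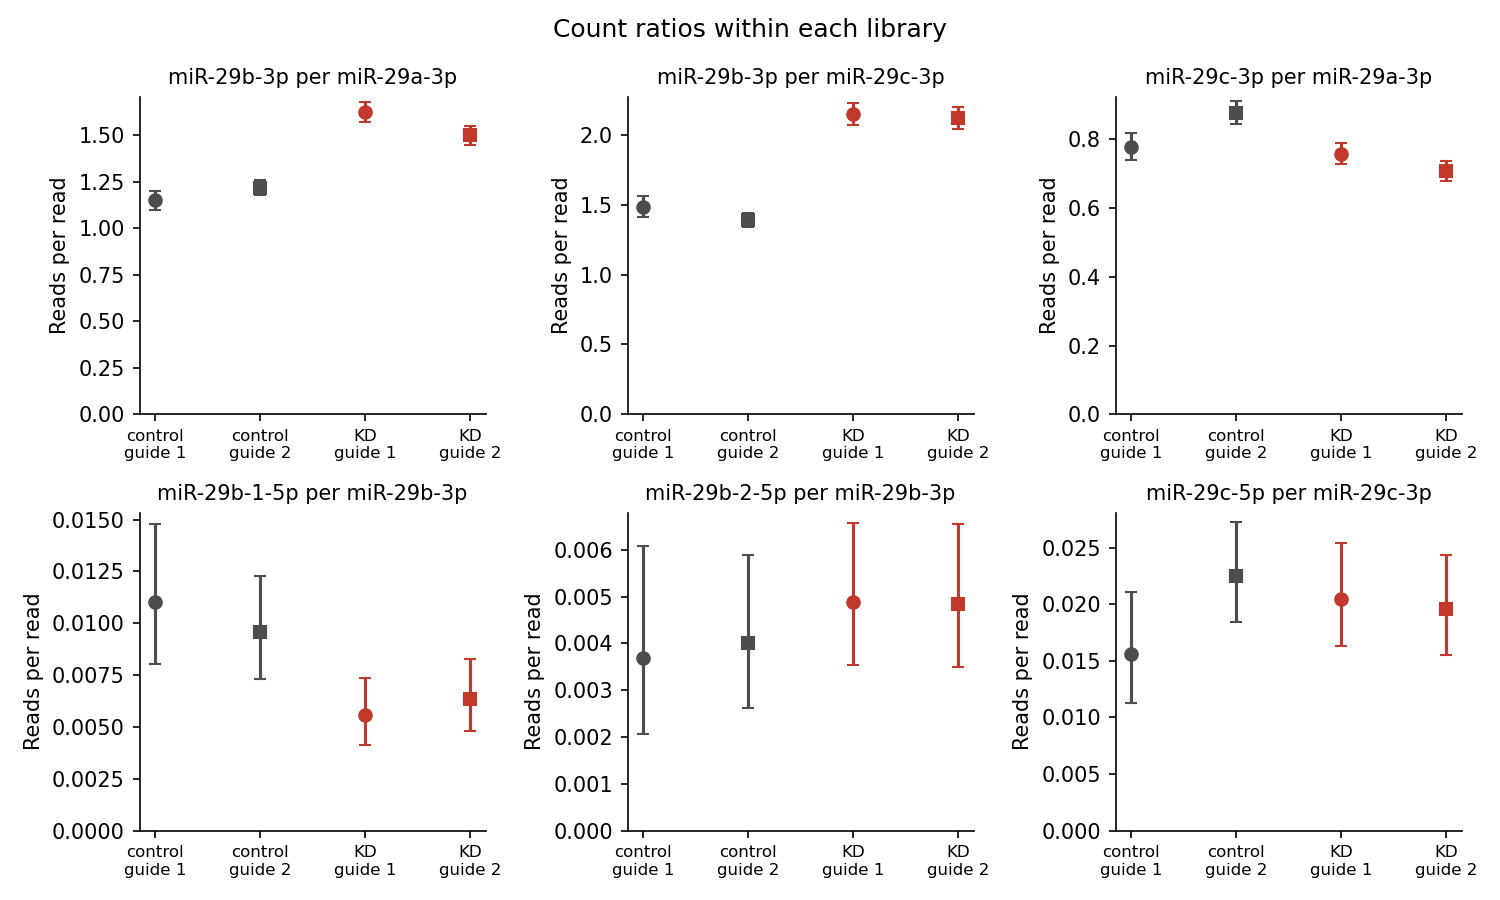
Reads of the first named miRNA per read of the second in each library (KD, ERH knockdown), with 95% exact binomial intervals that cover counting error only, and y axes from 0. The ratios of miR-29b-3p to miR-29a-3p and to miR-29c-3p are higher in both knockdown libraries than in both controls, that of miR-29b-1-5p to miR-29b-3p is lower, and that of miR-29c-5p to miR-29c-3p overlaps between groups.

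With TMM, 4 of the 5 members fell and none rose, with a median log2 fold change of -0.53, against 25.2% lower calls and a median of 0.06 over all tested miRNAs. With the added arms, 4 of 7 fell, with a median of -0.36. With library size alone, none of the 5 members fell and 1 rose (miR-29b-3p), and with spike-ins none was called. Over all 464 tested miRNAs, 273 rose and 41 fell with library size alone, and 186 rose and 8 fell with spike-ins. The members share hairpins, host transcripts and libraries and are not independent of each other. A change of scaling moves all members by about the same amount, so it bears on their direction and not on the differences between them.

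**Figure D5:**
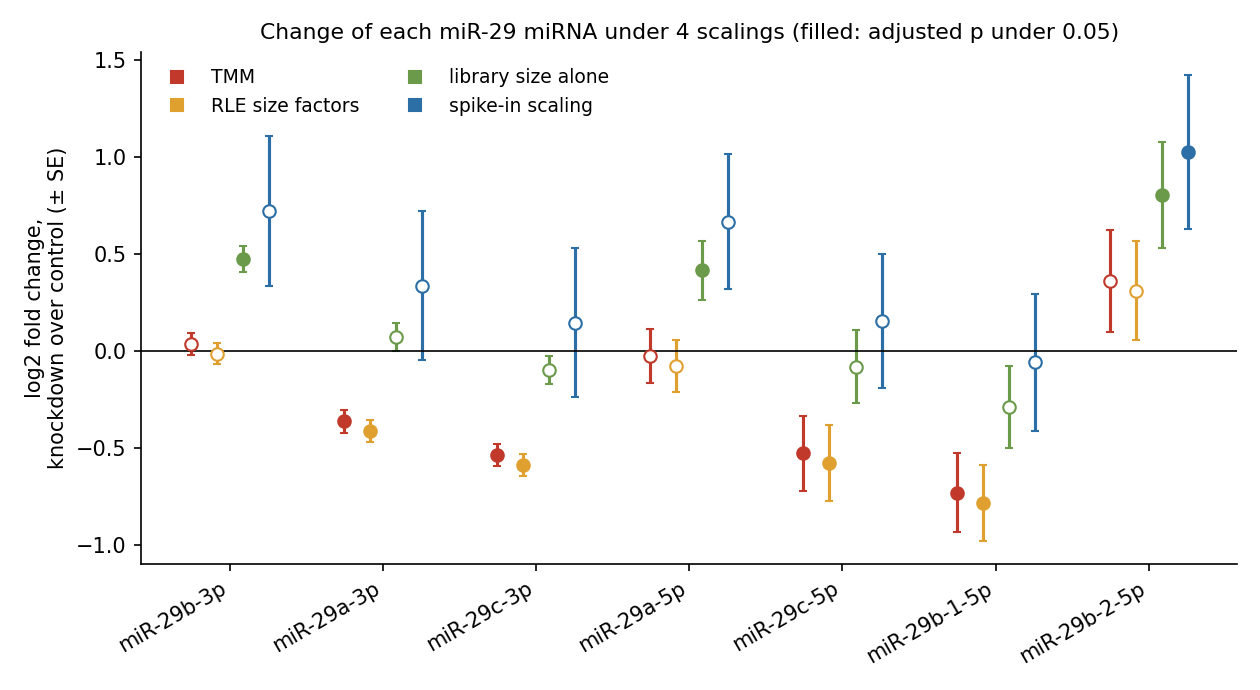
Log2 fold change of knockdown over control (± SE) of the 7 miR-29 miRNAs under 4 scalings, filled where the adjusted p of edgeR was under 0.05. All values shift up together from TMM (miR-29b-3p at 0.04, miR-29c-3p at -0.54) to spike-in scaling (0.72 and 0.15), as a scaling moves every miRNA of a library alike.

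The profiles of miR-29a-3p and miR-29b-3p over the 4 libraries were each nearer to those of unrelated miRNAs than to one another. Likeness was the Euclidean distance of centred log2 CPM among the more abundant tested miRNAs (231 candidates). Nearest to miR-29a-3p were miR-374a-3p (0.08), miR-140-5p (0.08), miR-191-5p (0.08), miR-671-3p (0.09) and miR-148a-3p (0.09), with miR-29c-3p at place 40 (0.22) and miR-29b-3p at place 116 (0.41). Nearest to miR-29b-3p were miR-590-5p (0.05), miR-940 (0.07), miR-500a-5p (0.08), miR-301a-3p (0.08) and miR-96-5p (0.08), with miR-29a-3p at place 127 and miR-29c-3p at place 170 (0.58). These distances over 4 libraries are a description of these libraries. They contain the differences between knockdown and control given above and are no separate support for them. Among 231 candidates, some unrelated miRNAs are likely to lie near by their number alone.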

How the data were processed

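Small RNA was gel-purified from TRIzol-extracted total RNA and sequenced, per the labels' protocols. The deposited values are raw read counts per mature miRNA, and for the aligner, annotation release, genome build and handling of reads that match several miRNAs the entry is: not given in the sources used here. Depth was 1430434 to 2476700 miRNA reads, and the 2 spike-in rows took 1.96% to 3.13% of all reads. Nothing says that the reads carry molecular identifiers, so intervals cover counting error only. Where the intervals of separate libraries overlap, this does not by itself show that counting error covers their difference.

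The members and lists were chosen with earlier results of these data known. Spike-in rows were left out. The edgeR 4.0.16 package (R 4.3.3) filtered the counts by filterByExpr, at a minimum count of 10 and a minimum total of 15 (464 miRNAs), and TMM factors and the quasi-likelihood test followed, called at a Benjamini-Hochberg adjusted p under 0.05. The SE is the fold change divided by the square root of the F statistic, and a prior count of 2 went into log2 CPM. Ratios to miR-29b-3p were fitted with limma 3.58.1 on log2 values with 0.5 reads added and a trended prior variance. That trend was preferred to 1 prior variance with an earlier result of both in view. Single ratios and shares had exact two-sided permutation tests (SciPy 1.17.1). With 1 culture for each guide RNA in each condition, p-values reflect only the spread among the 4 libraries. In edgeR that spread is partly pooled over all tested miRNAs. In limma it is pooled over all ratios, almost wholly with the trend and partly with 1 prior variance. The p-values of edgeR and limma therefore do not measure how well the 4 libraries agree for a single miRNA or ratio. No library was a duplicate, since the chi-square between libraries of a group, per degree of freedom, was 4.62 (knockdown) and 12.3 (control).

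Replicate numbers stand for guide RNAs, each with its own polyclonal line, and so pair the samples by design. The deviations of same-numbered libraries from their group means had a correlation of -0.11. Named miRNAs are the members, the other miR-29 arms, the 5 miRNAs nearest in profile to miR-29a-3p and to miR-29b-3p, and the seed families next to miR-29 by range. Alternatives were a block for guide RNA, DESeq2 1.42.0, RLE size factors, spike-in scaling, library size, a mean of at least 10 CPM, no filter, 1 prior variance, other pseudocounts and leaving out each library with the set of tested miRNAs kept. Ratios and shares of the arms miR-29a-5p and miR-29b-2-5p, the summed levels and a crossed pairing were added after the data were seen.

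On simulated counts with 200 changed miRNAs, edgeR found 89.87% of those set to 1 and 59.3% of those set to 0.5 (log2; 464 miRNAs), with 2.47% of calls false. The ratio test (463 ratios) found 86.92% and 55.04% with the trend (2.8% of calls false), and 81.06% and 25.38% with 1 prior variance (3.16% false). Unchanged ratios had an unadjusted p under 0.05 in 0.38% to 11.92% of cases per simulation with the trend and in 3.83% to 8.08% with 1 prior variance. The simulated counts were independent, with as many miRNAs raised as lowered and no difference between guide RNAs. They took the TMM scaling of these data as true. The spread of each miRNA was set by the fitted trend with read level, as the trended prior assumes. miR-29b-3p was never among the changed miRNAs. These rates therefore do not cover the choice of scaling, differences between guide RNAs or a change in miR-29b-3p. They also cannot decide between the trend and 1 prior variance. Hairpins were folded with RNAfold 2.7.2, host genes came from GENCODE 29, and plots were drawn with matplotlib 3.10.9.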

Additional observations from a re-analysis of the deposited data

How the results depend on the processing

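The direction of a member depends on the scaling between libraries, and the ratios within a library do not. With library size alone, miR-29a-3p turned to 0.072 and miR-29a-5p to 0.42, miR-29b-3p became called at 0.47, and miR-29c-3p (-0.10), miR-29c-5p (-0.081) and miR-29b-1-5p (-0.29) lost their calls. With spike-ins, miR-29a-3p was at 0.34, miR-29c-3p at 0.15, miR-29c-5p at 0.16 and miR-29a-5p at 0.67, and miR-29b-1-5p (-0.059) was not called. miR-29b-3p was at -0.014 with RLE size factors and with DESeq2. DESeq2 ended the calls of miR-29b-1-5p (-0.80) and miR-29c-5p (-0.55) and called 146 miRNAs against 236. With a mean of at least 10 CPM, miR-29c-5p (-0.49) was not called and miR-29a-5p was at 0.017. In the fit of ratios, 1 prior variance called 123 against 224 and ended the calls of miR-29a-3p (-0.40) and miR-29c-5p (-0.48). The split of all calls was 119 up and 117 down with TMM, 273 and 41 with library size, and 186 and 8 with spike-ins. The cause of these changes was not tested.

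Leaving out each library in turn gave 132 to 189 calls in edgeR and 117 to 195 in the fit of ratios. The log2 fold changes then ran from -0.87 to -0.61 for miR-29b-1-5p, from -0.72 to -0.15 for miR-29c-5p, from -0.0058 to 0.076 for miR-29b-3p and from -0.13 to 0.073 for miR-29a-5p. The ratios to miR-29b-3p ran from -0.90 to -0.69 for miR-29b-1-5p, from -0.79 to -0.18 for miR-29c-5p and from -0.21 to 0.074 for miR-29a-5p. miR-29c-5p per miR-29c-3p ran from -0.17 to 0.35. miR-29b-3p per miR-29a-3p stayed between 0.34 and 0.46 and per miR-29c-3p between 0.53 and 0.62.

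With guide RNA as a replicate block 231 miRNAs were called (117 up, 114 down), and the block ended 1 call among the miR-29 results, that of the ratio of miR-29c-5p to miR-29b-3p (-0.48, adjusted p = 0.061 in limma). A crossed pairing called 243. Depth limits the 5p arms, which had 15 to 179 reads per library.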

Other observations

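Among the 413 tested miRNAs with a RefSeq mature sequence, 11 seeds were shared by at least 3. Another 51 tested miRNAs have no RefSeq locus under their name and were left out, so families can be incomplete. The miR-29 3p arms spanned 0.57 on the log2 scale between their lowest and highest fold change, the 8th widest range among these 11. Next above was the seed of miR-25-3p, miR-32-5p, miR-92a-3p and miR-92b-3p, which spanned 0.72, from -0.72 (miR-92a-3p) to -0.00 (miR-32-5p). Next below was that of miR-130b-3p, miR-301a-3p, miR-301b-3p and miR-454-3p, which spanned 0.50, from -0.16 (miR-130b-3p) to 0.34 (miR-301b-3p). Several of the wider families hold members with few reads, so their ranges also carry counting error.

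miR-29b-3p is 1 of 38 tested miRNAs that RefSeq assigns to at least 2 hairpins. Of these 38, 11 rose and 6 fell (44.7% called, edgeR), with a median log2 fold change of 0.01. Of 375 tested miRNAs from 1 hairpin, 92 rose and 99 fell (50.9% called), with a median of 0.06.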
